A study of Rattus with 9 samples.

Results

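Neutrophils are drawn into injured tissue by CXC chemokines and are released from the marrow and kept alive by granulocyte colony-stimulating factor. The genes followed here were 8 of the 23836 gene symbols in the count matrices, picked by symbol: the chemokines Cxcl1, Cxcl2, Cxcl3 and Cxcl6, their receptors Cxcr1 and Cxcr2, the growth factor gene Csf3 and its receptor gene Csf3r. Each symbol matched 1 feature of the matrices, and all 8 were found in the rat gene table of RefSeq. In that table Cxcl2, Cxcl1, Cxcl3 and Cxcl6 lie near each other, with the platelet chemokine genes Pf4 and Ppbp between them, and Cxcr2 is next to Cxcr1.

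The series holds droplet single-cell RNA sequencing of rat bile duct and asks how a higher arterial flow to a liver graft alters biliary injury. The sham group had 3 samples of 1 library each. The ctrl group received a liver transplant (LT) with ischemic injury, and the treat group received the same LT with the splenic and gastroduodenal arteries tied off, which raises hepatic arterial flow. Both transplant groups were sampled post-LT, on days 1, 3 and 7, with 3 libraries per day. For treat day 3 the counts of libraries 2 and 3 were available, and those of library 1 were missing. The labels give no genotype, strain, sex or age, and leave unsaid if each library of a day is its own animal. The methods read here name Sprague-Dawley rats of both sexes but do not describe the artery ligation, so it is uncertain that they cover these samples. The same methods describe digestion with collagenases and dispase, lysis of red cells and removal of dead cells. Where these steps were used, the cells counted are those that survived them. Libraries of a day were summed, and the 9 resulting samples were compared as 3 sham, 3 ctrl and 3 treat. The 3 samples of a transplant group differ in day, so their spread holds the day, and p-values measure only the spread between these samples.

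Chemokines of this family with the ELR motif bind the G protein-coupled receptor Cxcr2 on neutrophils and, in many species, Cxcr1. Epithelium, stroma, endothelium and myeloid cells make them after danger signals such as interleukin 1, tumor necrosis factor and interleukin 17. Granulocyte colony-stimulating factor acts through Csf3r on the neutrophil line. In bile ducts, neutrophil influx accompanies ischemia and reperfusion, infection and obstruction.

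After filtering, 139416 cells were retained, from 2273 to 31693 per sample, and libraries held 14398295 to 109245177 UMIs (unique molecular identifiers, the count of distinct captured transcripts). Clustering without the 8 genes gave 39 clusters, of which 26 were named from markers, in 13 classes, and 27664 cells (19.8%) stayed unnamed. The neutrophil-like class held 10 of its 12 markers as detected genes. Its defining pair S100a8 and S100a9 stood at 24085 to 120039 and 48878 to 188703 CPM (UMIs of the gene per 1000000 UMIs in the class) over the 9 samples, whereas the granule gene Ltf was at most 0.485 CPM and Ngp ranged from 0 to 44.1 CPM. Several libraries stood apart. Sham 1 had the fewest cells, and 96.6% of its macrophage-like cells fell into a cluster that held 5.54% and 6.30% of those of sham 2 and 3. Ctrl day 1 library 2 had 88.4% of its neutrophil-like cells in a cluster that held 0.212% of those of library 1. Ctrl day 7 library 2 gave 1271 of the 1309 cells of ctrl day 7 in an unnamed cluster of 1906 cells. In all cells it had the highest Cxcl1, Cxcl2, Cxcl3, Csf3, Cxcr2 and Csf3r of that day. Ctrl day 3 libraries 2 and 3 lost 2472 of 2914 and 3961 of 4307 barcodes to the limit on hemoglobin UMIs. No pair of libraries shared more than 1.19% of their cell barcodes.

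Neutrophil-like cells were more frequent in every transplant sample than in every sham sample when all libraries were included. They made up 2.95%, 0.108% and 0.334% of cells in sham 1, 2 and 3, where they numbered 67, 10 and 37. In ctrl they made up 27.2%, 32.3% and 7.79% at days 1, 3 and 7, and in treat 12.3%, 7.45% and 3.67%. The 95% Wilson interval was 0.0588% to 0.199% for sham 2 and 31.3% to 33.4% for ctrl day 3, and these intervals cover counting error only. Those of sham 1 (2.33% to 3.73%) and treat day 7 (3.45% to 3.91%) overlapped. Ctrl exceeded sham by 21.3 percentage points and treat exceeded sham by 6.69 points (two-sided exact permutation test, p = 0.1 for both, the smallest p that 3 against 3 samples allow). Treat was 14.6 points below ctrl (exact permutation p = 0.2). The treat share was below the ctrl share on each of the 3 days, but treat day 1 exceeded ctrl day 7. Without ctrl day 1 library 2 ctrl exceeded sham by 19.7 points, and treat remained below ctrl (exact permutation p = 0.2). Without ctrl day 7 library 2 the differences were 20.2 points for ctrl against sham and -13.5 points for treat against ctrl (exact permutation p = 0.1 and 0.3). Treat day 3 stood at 2.68% without library 2 and treat day 7 at 1.999% without library 2, both below sham 1, whereas every ctrl day stayed above sham when any single library was left out. Ctrl day 7 stood at 4.55% without library 2 and treat day 3 at 13.1% without library 3. The share depends on digestion and cell survival and is not a cell number per duct.

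In all cells summed, the chemokine and receptor genes fell into a pair of patterns. Cxcl1 overlapped between all groups. The other 6 genes with enough counts to test were higher in every ctrl sample than in every sham sample, against 5.87% of the 15968 genes tested. Of these separations 4 (Cxcl2, Cxcl3, Csf3 and Cxcr2) ended without ctrl day 7 library 2 and that of Cxcl6 ended without ctrl day 7 library 3, whereas that of Csf3r remained when any single library was left out. In treat, Cxcl6 and Csf3r (2 of 7) were above every sham sample, against 6.24% of genes, and Cxcl2 and Cxcl3 (2 of 7) were below every ctrl sample, against 2.19% of genes. Except for that of Csf3r, these ended too when single libraries were left out: treat day 1 or day 7 library 3 for Cxcl6, ctrl day 7 library 2 or treat day 3 library 2 for Cxcl2 and Cxcl3, and ctrl day 1 library 2 for Cxcl2. With edgeR's quasi-likelihood test, Cxcl2 and Csf3r (2 of 7) passed an adjusted p of 0.05 in ctrl against sham, where 8.34% of genes passed. No member passed in treat against sham, where 0.00626% of genes passed (1 gene, with 3704 at an unadjusted p under 0.05 and 2315 called by DESeq2). No member passed in treat against ctrl, where 0% passed, with 538 genes at an unadjusted p under 0.05 and 9 called by DESeq2. A level over all cells combines the number of cells of a type with the RNA per cell, and these cannot be told apart in it.

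**Figure D1:**
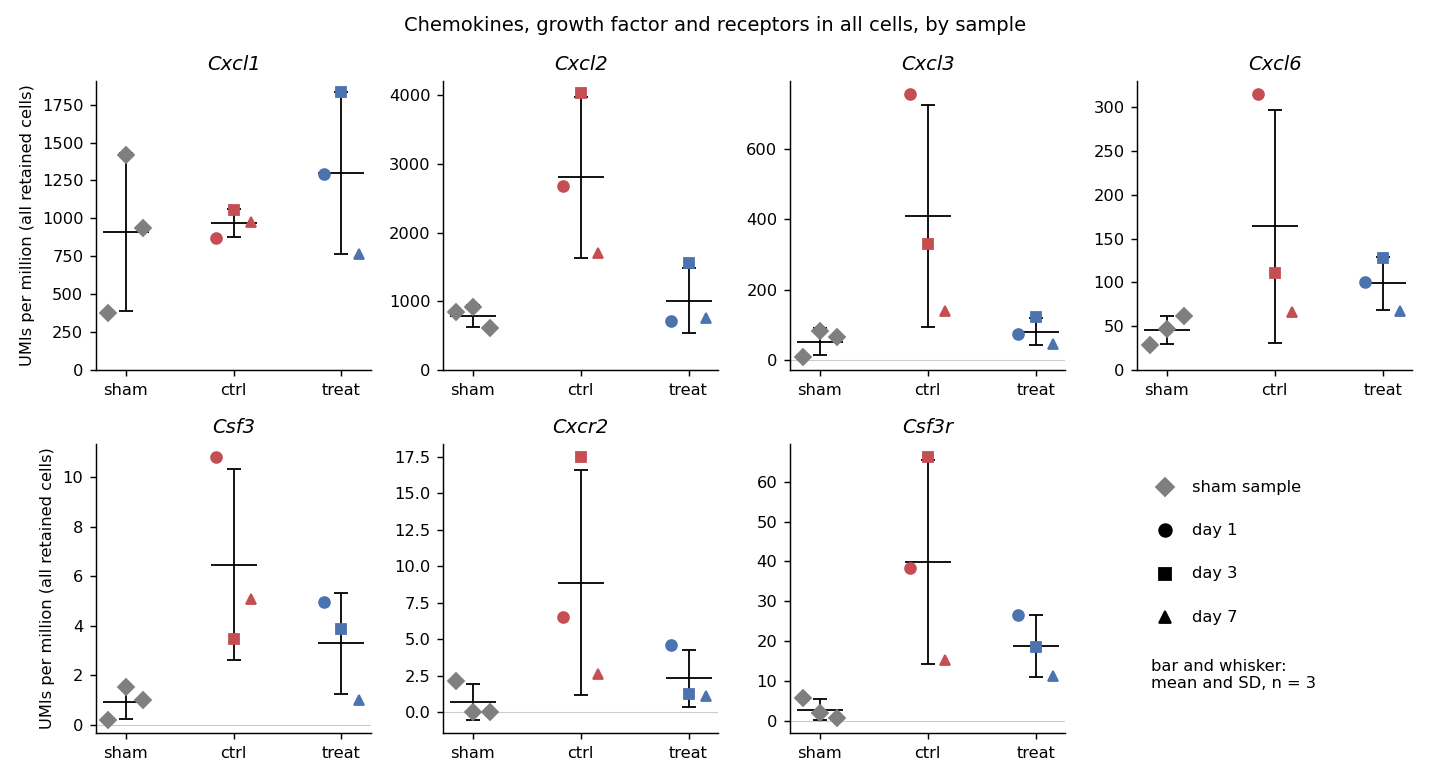
CPM of the 7 tested genes (vertical axes, linear) in all retained cells of each sample, by group; symbols mark the day, bars the mean and whiskers the SD of 3 samples. All 3 ctrl samples lie above the 3 sham samples in every panel except Cxcl1, with all libraries included.

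Cxcl2, a chemokine made mainly by myeloid cells, stood at 840, 915 and 610 CPM in the sham samples. It stood at 2681, 4030 and 1703 CPM in ctrl at days 1, 3 and 7, and at 716, 1558 and 762 CPM in treat. Every ctrl sample was above every sham and every treat sample, whereas sham and treat overlapped. The ctrl day 7 level rested on library 2, with 525, 4973 and 933 CPM in libraries 1, 2 and 3. Without it ctrl day 7 stood at 734 CPM, below sham 1 and 2 and all treat samples but day 1. Group means were 788 ± 159, 2804 ± 1168 and 1012 ± 473 CPM (SD, n = 3 each). The log2 fold change of ctrl against sham was 2.16 (SE 0.42, edgeR adjusted p = 0.0262). That call was lost without sham 2 (adjusted p = 0.0881), without sham 3 (0.114), without ctrl day 3 (0.0833) or without ctrl day 7 library 2 (log2 fold change 1.98, adjusted p = 0.0716), and adjusted p ranged from 2.36e-05 to 0.114 over 20 alternatives. Without ctrl day 1 library 2 the log2 fold change was 1.89 (edgeR adjusted p = 0.0453), and ctrl day 1 then stood at 1264 CPM, below treat day 3. Treat against sham gave a log2 fold change of 0.67 (SE 0.40, edgeR adjusted p = 0.341). Treat against ctrl gave -1.50 (SE 0.41, edgeR adjusted p = 0.998, within 0.165 to 1.0 over 21 alternatives). At matched days the treat level was 0.267, 0.387 and 0.447 of the ctrl level at days 1, 3 and 7, with ctrl day 7 library 2 included.

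Cxcl3, a neighbour of Cxcl1 and Cxcl2 on the chromosome, was low in sham, at 8.12, 81.9 and 64.5 CPM. In ctrl it stood at 755, 328 and 139 CPM, and in treat at 74.3, 121 and 45.2 CPM. The ctrl samples were above all others, and the spread between ctrl days was wide (407 ± 315 CPM, SD, n = 3). Ctrl day 7 held 15.1, 466 and 68.5 CPM in libraries 1, 2 and 3, and without library 2 it stood at 42.4 CPM, below sham 2 and 3 and every treat sample. The log2 fold change of ctrl against sham, 3.26 (SE 0.94), did not pass (edgeR adjusted p = 0.0657), nor did that of treat against ctrl, -2.39 (SE 0.91, edgeR adjusted p = 0.998). Ctrl day 1 library 2 carried much of the day 1 level, which was 126 CPM without it, and the log2 fold changes were then 2.19 and -1.32. They were 3.14 and -2.27 without ctrl day 7 library 2. Cxcl1, Cxcl2 and Cxcl3 are similar in sequence, and how reads shared between them were counted is not given in the sources used here, so the split between them is uncertain.

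Cxcl1, which stroma, endothelium and epithelium make along with myeloid cells, showed no separation of groups. It stood at 378, 1419 and 934 CPM in sham, 871, 1058 and 978 CPM in ctrl, and 1296, 1833 and 768 CPM in treat. Ctrl day 7 held 322, 2446 and 751 CPM in libraries 1, 2 and 3. The log2 fold changes were 0.37 (SE 0.51) for ctrl against sham, 0.77 (SE 0.51) for treat against sham and 0.39 (SE 0.51) for treat against ctrl, with edgeR adjusted p of 0.655, 0.388 and 0.998.

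Cxcl6, a chemokine of epithelium, stood at 28.7, 47.3 and 61.6 CPM in sham, 315, 111 and 66.1 CPM in ctrl, and 101, 128 and 68.0 CPM in treat. All 6 transplant samples were above the 3 sham samples, by little at day 7, where ctrl stood at 54.4 CPM without library 3 and treat at 32.9 CPM without library 3. The log2 fold changes against sham were 2.16 in ctrl (SE 0.62, edgeR adjusted p = 0.0638) and 1.38 in treat (SE 0.60, edgeR adjusted p = 0.214). Ctrl and treat overlapped, and without ctrl day 1 their difference, -0.78 on the log2 scale (SE 0.59, edgeR adjusted p = 0.998), became 0.16.

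Csf3 had few UMIs, from 2 to 1047 per sample. It stood at 0.216, 1.55 and 0.995 CPM in sham, 10.8, 3.48 and 5.09 CPM in ctrl, and 4.97, 3.87 and 1.03 CPM in treat. Ctrl was above sham, and treat overlapped with both. The log2 fold change of ctrl against sham was 2.99 (SE 0.81, edgeR adjusted p = 0.0559). Ctrl day 1 library 2 decided the day 1 level, which was 1.86 CPM without it, and ctrl day 7 library 2 decided the day 7 level, which was 0.752 CPM without it and below sham 2 and 3. Treat day 1 stood at 1.25 CPM without library 3, and treat day 7 held 0.197, 2.98 and 0.613 CPM in libraries 1, 2 and 3.

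Csf3r, through which granulocyte colony-stimulating factor acts, stood at 5.74, 1.97 and 0.827 CPM in sham, 38.3, 66.2 and 15.2 CPM in ctrl, and 26.6, 18.6 and 11.2 CPM in treat. All transplant samples were above all sham samples. The log2 fold change was 4.31 in ctrl against sham (SE 0.78, edgeR adjusted p = 0.0245) and 3.21 in treat against sham (SE 0.74, edgeR adjusted p = 0.0828). The ctrl call was lost without sham 2 (adjusted p = 0.0964), without sham 3 (0.0992), without ctrl day 3 (0.0743) and in a fit of the sham and ctrl samples alone (0.0509), within a range of 9.97e-08 to 0.0992 over 20 alternatives. The treat value passed with DESeq2 (0.000288) and with each library as a sample (edgeR, 0.0338), within a range of 0.000288 to 0.269.

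Cxcr2 stood at 2.16, 0 and 0.0459 CPM in sham, 6.51, 17.5 and 2.62 CPM in ctrl, and 4.58, 1.28 and 1.12 CPM in treat. Ctrl samples were above sham samples, and the log2 fold change of 4.65 had a large error (SE 1.64, edgeR adjusted p = 0.106). Without ctrl day 7 library 2, ctrl day 7 stood at 1.17 CPM, below sham 1. Treat day 3 held 1.97 and 0.579 CPM in libraries 2 and 3. Cxcr1 had 2 UMIs in all retained cells, both in treat, and was not tested; a count of 0 allows up to 0.0157 CPM in the deepest sample and 0.325 CPM in the shallowest. The summed level of the 12 neutrophil markers was above every sham sample in every transplant sample. It was 1031, 50.0 and 96.3 CPM in sham, 17825, 15570 and 6921 CPM in ctrl, and 12659, 2044 and 2063 CPM in treat. In ctrl the sum was highest at day 1, whereas both receptors were highest at day 3. S100a8 and S100a9 made up most of the sum, at 6459 and 10827 CPM in ctrl day 1.

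**Figure D2:**
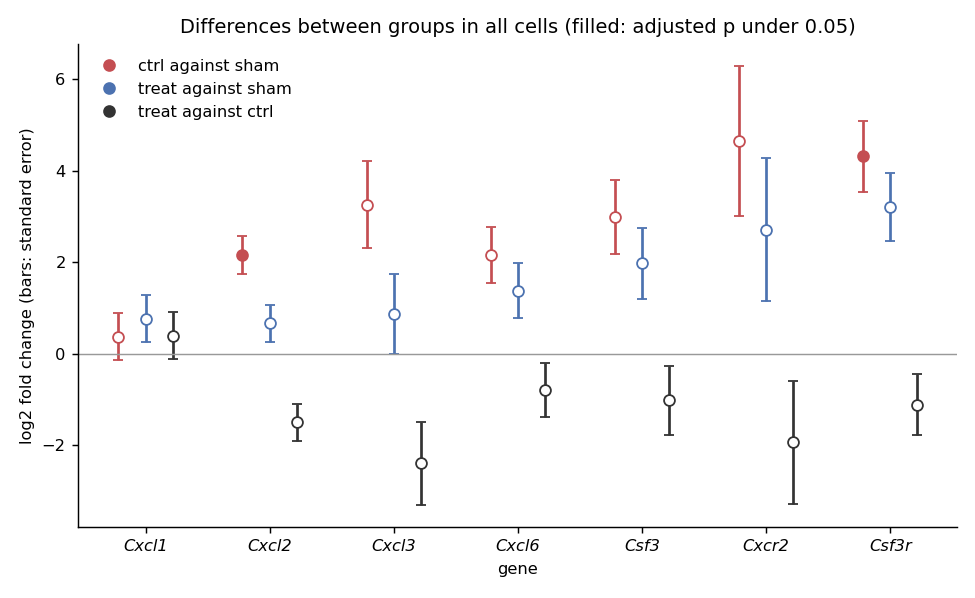
Log2 fold changes (vertical axis) of the 7 tested genes in all cells for the 3 comparisons, with standard errors; filled points have an adjusted p under 0.05 (edgeR, 9 samples). The filled points are Cxcl2 and Csf3r in ctrl against sham.

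By cell class, the receptors peaked in neutrophil-like cells, where Cxcl2 also peaked, and Cxcl6 peaked in BEC-like cells. The assay counts transcript ends, so the classes are compared here within a gene. Over the 9 samples, the median Cxcr2 level was 78.8 CPM in the neutrophil-like class and 1.59 CPM in the monocyte-like class, and at most 0.549 CPM in the other 9 classes plotted. The median Csf3r level was 404 CPM in neutrophil-like, 43.6 CPM in monocyte-like and 16.9 CPM in macrophage-like cells. Neutrophil-like samples (180 to 830 CPM of Csf3r) did not overlap with monocyte-like samples (17.0 to 65.2 CPM). Monocyte-like and macrophage-like samples (8.95 to 21.9 CPM) overlapped.

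**Figure D3:**
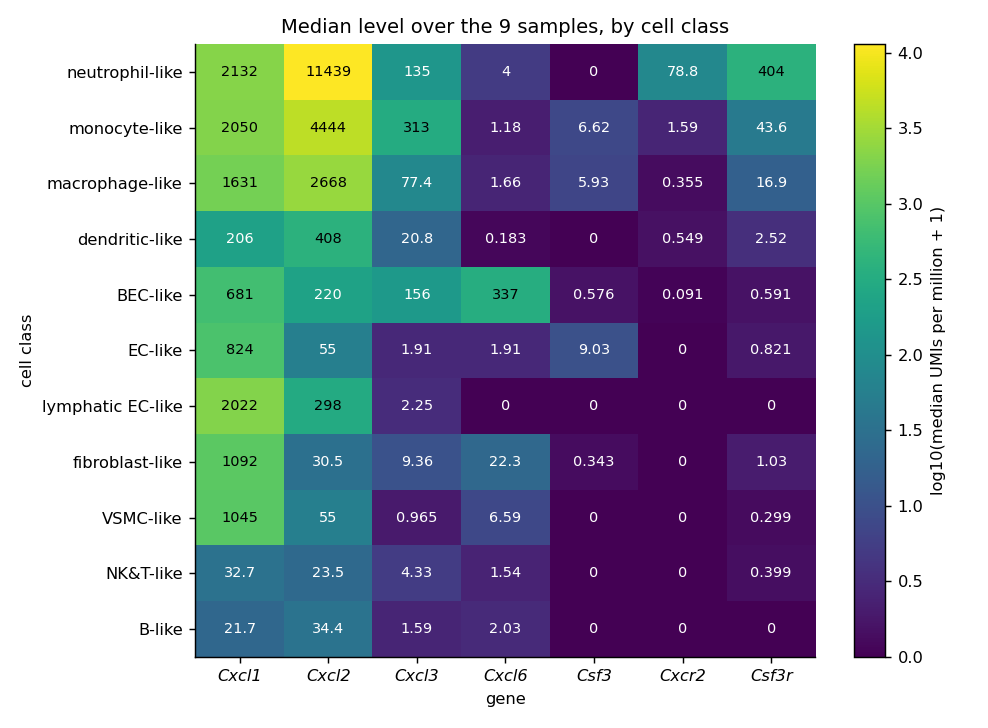
Median level over the 9 samples in CPM (numbers in cells, color on a log10 scale of the value plus 1) for 7 genes (horizontal axis) in 11 cell classes (vertical axis). Receptors peak in the neutrophil-like row, Cxcl6 in the BEC-like row, and Cxcl1 is spread over stromal, endothelial and myeloid rows. Samples with few cells of a class are included, such as 9 and 7 lymphatic EC-like cells in ctrl days 1 and 3 and 8, 8 and 4 B-like cells in sham.

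The classes that held the receptor UMIs differed between Cxcr2 and Csf3r. Neutrophil-like cells held 66.7% to 90.0% of the Cxcr2 UMIs in the 8 samples that had any. They held 45.7% to 86.1% of Csf3r UMIs in ctrl and 32.4% to 74.9% in treat. In sham they held 34 of 53 in sham 1, 8 of 109 (7.34%) in sham 2 and 7 of 54 in sham 3. In treat day 3 monocyte-like cells held more of them (52.5%) than neutrophil-like cells, and macrophage-like cells held 69.7% and 61.1% in sham 2 and 3. Without library 2 of treat day 3, neutrophil-like cells held 46.2% of the Cxcr2 UMIs and 10.5% of the Csf3r UMIs of that sample. In cells thinned to 1000 UMIs each, Cxcr2 was seen in 6.84%, 14.3% and 7.72% of neutrophil-like cells of ctrl and 10.7%, 4.94% and 7.04% of those of treat. It was seen in at most 0.0183% of NK&T-like cells, a class that should lack it, of any sample. Unthinned, the neutrophil-like shares were 14.2%, 24.3% and 11.7% in ctrl and 20.9%, 6.87% and 10.9% in treat. Thinned shares for Csf3r were 31.9%, 36.8% and 21.3% in ctrl and 47.5%, 27.7% and 32.6% in treat, against at most 0.239% of NK&T-like cells. Unthinned, they were 52.4%, 54.0% and 31.7% in ctrl and 69.3%, 33.9% and 41.9% in treat. Neutrophil-like cells had a median of 914 to 2111 UMIs and NK&T-like cells 2167 to 4466, so thinning left out up to 346 neutrophil-like cells per sample in the 9 samples.

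Within the neutrophil-like class, neither receptor separated the groups. Csf3r stood at 305, 830 and 180 CPM in sham, 404, 484 and 249 CPM in ctrl, and 612, 322 and 447 CPM in treat. Cxcr2 stood at 143, 0 and 51.3 CPM in sham, 71.8, 156 and 78.8 CPM in ctrl, and 111, 51.2 and 79.3 CPM in treat. The sham values rest on 67, 10 and 37 cells. The edgeR log2 fold changes of treat against ctrl were 0.25 (SE 0.33) for Csf3r and -0.35 (SE 0.36) for Cxcr2, both with an adjusted p of 0.99. The order of days differed between the arms, with treat above ctrl at days 1 and 7 and below it at day 3 for Csf3r.

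Neutrophil-like cells also had the highest level of Cxcl2 per UMI. Over the 9 samples the median Cxcl2 level was 11439 CPM in neutrophil-like, 4444 CPM in monocyte-like, 2668 CPM in macrophage-like and 408 CPM in dendritic-like cells. It was 298 CPM in lymphatic EC-like and 220 CPM in biliary epithelial cell (BEC)-like cells, and lower in endothelial (EC), vascular smooth muscle (VSMC), B, fibroblast and NK&T-like cells, down to 23.5 CPM in the last. The neutrophil-like samples (6722 to 26061 CPM) were above the monocyte-like samples (2886 to 6336 CPM) without overlap. The macrophage-like samples (626 to 7220 CPM) overlapped with both. Per cell the order differed, since these classes differ in UMIs per cell. Neutrophil-like cells held 50.7, 50.8 and 32.3 UMIs of Cxcl2 per cell in ctrl and 15.1, 15.9 and 10.4 in treat, and monocyte-like cells 39.0, 32.4 and 20.8 in ctrl and 26.6, 20.4 and 14.6 in treat. The monocyte-like value was the higher of the pair in the 3 treat samples and in sham 2 and 3. Macrophage-like cells held 0.819, 30.2 and 24.9 in sham, 3.94, 22.01 and 14.7 in ctrl and 15.6, 34.2 and 14.97 in treat, more than neutrophil-like cells in those 5 samples and more than monocyte-like cells in 4 of them.

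The share of Cxcl2 that each class gave varied between samples, and these shares were not tested. Neutrophil-like cells gave 68.1%, 62.6% and 31.6% of the Cxcl2 UMIs in ctrl at days 1, 3 and 7, and 30.6%, 13.7% and 9.49% in treat. In sham they gave 27.0%, 0.142% and 0.816%. Macrophage-like cells gave 70.1% and 62.6% in sham 2 and 3 and 3.38% in sham 1, 1.00% to 17.6% in ctrl and 10.3% to 37.3% in treat. Monocyte-like cells gave 42.7%, 44.5% and 21.3% in treat, against 12.5%, 19.7% and 16.7% in ctrl. Unnamed cells gave 48.1% in sham 1 and 4.81% to 27.9% in the other samples. The macrophage-like share depended on the clustering. In a finer clustering (Leiden resolution 2), macrophage-like cells gave 47.5%, 79.2% and 78.7% in sham 1, 2 and 3. They then gave 11.8% to 41.5% in ctrl and 18.8% to 45.1% in treat, whereas neutrophil-like and monocyte-like shares hardly moved. At the resolution used, several of the class shares rested on single libraries. The neutrophil-like share was 16.8% in ctrl day 7 without library 2, and in treat day 3 it was 4.88% without library 2 and 25.2% without library 3. The monocyte-like share in ctrl day 1 was 2.44% without library 1 and 33.2% without library 2, and in treat day 1 it was 25.04% without library 1. The widest 95% Wilson interval of these shares was 1.11 points to either side, for counting error only.

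**Figure D4:**
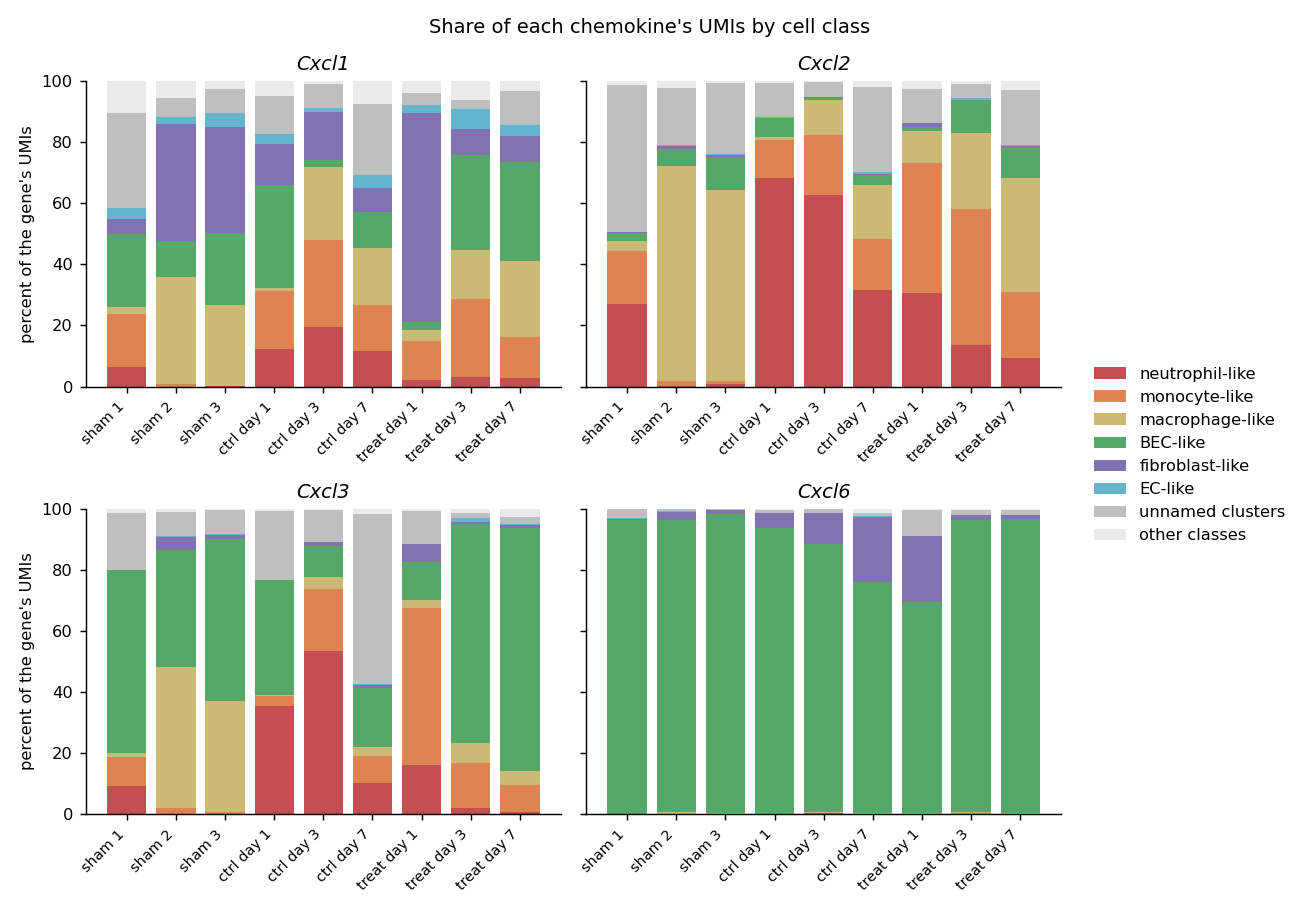
Percent of each chemokine's UMIs (vertical axis, stacked to 100%) that came from each cell class in each of the 9 samples (horizontal axis). BEC-like cells give most Cxcl6 in every sample, and neutrophil-like cells give 68.1% and 62.6% of Cxcl2 in ctrl at days 1 and 3.

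Within the neutrophil-like class, Cxcl2 and Cxcl3 were highest in the ctrl samples, with large differences between libraries. Cxcl2 stood at 18756, 7473 and 8337 CPM in sham, 22355, 26061 and 19364 CPM in ctrl, and 6722, 11439 and 7205 CPM in treat. Cxcl3 stood at 62.7, 0 and 51.3 CPM in sham, 3283, 1810 and 522 CPM in ctrl, and 369, 135 and 31.6 CPM in treat. With Csf3, 3 of the 7 members tested in the class were below every ctrl sample in treat, against 2.57% of the 7281 genes tested. None passed edgeR's test, where 0% of genes passed: the log2 fold change of treat against ctrl was -1.49 for Cxcl2 and -3.36 for Cxcl3, with an adjusted p of 0.99 for both (SE 0.37 and 0.94, unadjusted p = 0.00348 and 0.00661). At an unadjusted p under 0.05 the class had 320 genes. DESeq2 called 16 genes, with adjusted p of 0.00313 for Cxcl2 and 0.00772 for Cxcl3, and adjusted p ranged from 0.00313 to 1.0 for Cxcl2 and from 0.000313 to 1.0 for Cxcl3 over 17 alternatives.

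Single libraries showed how uneven these values were. Neutrophil-like Cxcl2 ranged from 8736 to 42810 CPM over the 9 ctrl libraries and from 1837 to 12276 CPM over the 8 treat libraries, so libraries overlapped where samples did not. The 3 libraries of ctrl day 1 held 69.3, 8450 and 846 CPM of Cxcl3. Without library 2, ctrl day 1 stood at 9958 CPM of Cxcl2 and 152 CPM of Cxcl3, below the treat day 3 level of Cxcl2 and the treat day 1 level of Cxcl3. The log2 fold changes of treat against ctrl were then -1.16 and -2.08 (edgeR adjusted p = 0.999 for both). Without ctrl day 7 library 2, ctrl day 7 stood at 9392 CPM of Cxcl2 and 101 CPM of Cxcl3, below treat day 3 and treat day 1 respectively, and neutrophil-like Csf3 of that day was 0. The log2 fold changes were then -1.14 and -3.22 (edgeR adjusted p = 0.985 for both). The separations of ctrl and treat in this class ended with either library left out.

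**Figure D5:**
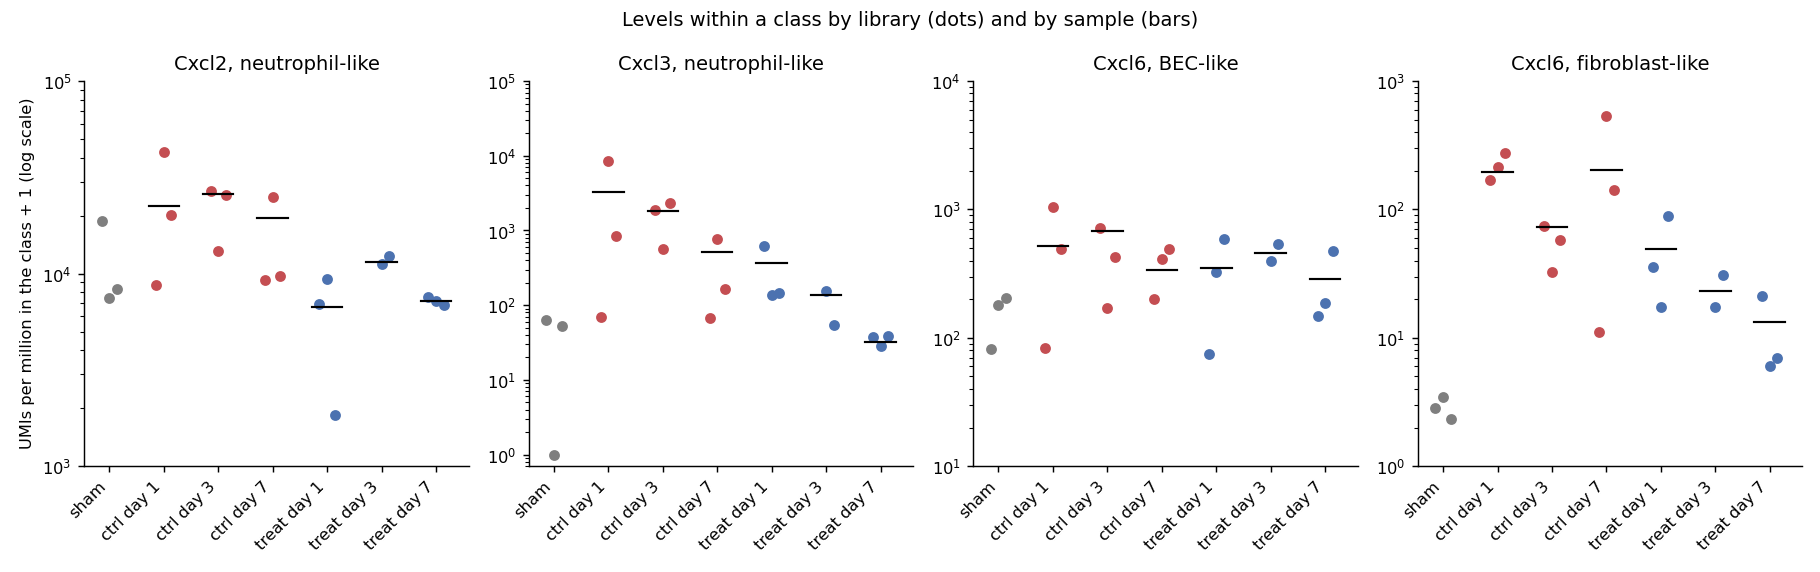
CPM within a class plus 1 (vertical axes, log scale) of Cxcl2 and Cxcl3 in neutrophil-like cells and of Cxcl6 in BEC-like and fibroblast-like cells; dots are libraries, bars are samples with several libraries. Fibroblast-like Cxcl6 is the panel in which every transplant library lies above every sham library.

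Clusters of neutrophil-like cells held different amounts of the chemokines. The larger cluster, of 11766 cells, held 12791 CPM of Cxcl2 and 283 CPM of Cxcl3. A cluster of 1570 cells held 45682 CPM of Cxcl2, 9090 CPM of Cxcl3 and 68.6 CPM of Csf3, with 58.8 CPM of Cxcr2 and 248 CPM of Csf3r, against 103 and 471 CPM in the larger cluster. Its leading genes included Slpi, an antiprotease, Il1b and the chemokine gene Ccl3. The cells of this cluster were 34.9%, 9.14% and 2.39% of the neutrophil-like cells of ctrl at days 1, 3 and 7, and 2.41%, 0.164% and 0.105% of those of treat. Ctrl day 1 library 2 gave 1134 of its cells, and the shares in ctrl day 1 libraries 1 and 3 were 0.212% and 24.9%. Within the larger cluster alone, Cxcl2 stood at 10216, 22772 and 18772 CPM in ctrl and 5765, 11419 and 7197 CPM in treat. Clusters were built from the same cells, so these levels describe them and test nothing.

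Cxcl2 and Csf3r, which are not a ligand and its receptor, were seen in the same cells. Whether they met more often than their separate frequencies give was not tested. In thinned neutrophil-like cells, Cxcl2 was seen in 90.2%, 91.5% and 90.2% of cells in ctrl and in 69.4%, 83.5% and 81.3% in treat, and Cxcl2 together with Csf3r was seen in 18.7% to 33.4% and 23.0% to 34.6%. Unthinned, Cxcl2 was seen in 93.5%, 93.4% and 90.9% in ctrl and 77.9%, 84.6% and 85.2% in treat. In thinned NK&T-like cells Cxcl2 was seen in at most 5.97%. The level of Cxcl2 that free RNA would give was 0.426% of its UMIs in neutrophil-like cells.

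Cxcl3 had more sources than Cxcl2. Neutrophil-like cells gave 35.5%, 53.4% and 10.4% of its UMIs in ctrl and 16.1%, 2.09% and 0.701% in treat. The ctrl share was 8.10% at day 1 and 3.13% at day 7 without library 2 of the day, and the treat share was 9.90% at day 1 without library 1 and 0.254% at day 3 without library 2. BEC-like cells gave 38.4% to 60.0% in sham, 37.5%, 10.4% and 19.1% in ctrl and 12.7%, 71.5% and 79.6% in treat. Monocyte-like cells, with the highest median level over the samples (313 CPM), gave 51.4% in treat day 1, and unnamed cells gave 55.7% in ctrl day 7. Without library 2 of ctrl day 7, unnamed cells gave 5.11% and BEC-like cells 70.1%. The unnamed cells included the cluster of 1906 cells to which ctrl day 7 library 2 gave 1271, with Pf4, Gpnmb and Spp1 among its leading genes, which held 3609 CPM of Cxcl1, 7684 CPM of Cxcl2, 2673 CPM of Cxcl3 and 77.9 CPM of Csf3. At Leiden resolution 2, 1897 of these cells fell into a cluster named macrophage-like, and macrophage-like cells then gave 58.3% of the Cxcl3 UMIs of ctrl day 7, against 3.2% at the resolution used. Within BEC-like cells, Cxcl3 stood at 14.2, 125 and 115 CPM in sham, 494, 238 and 179 CPM in ctrl, and 47.5, 325 and 156 CPM in treat. The BEC-like treat samples overlapped with both other groups. Without ctrl day 1 library 2, ctrl day 1 stood at 159 CPM, and without ctrl day 7 library 3, ctrl day 7 stood at 73.8 CPM, below sham 2 and 3.

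Cxcl1 came from nearly all tissue classes. Its median over the samples was 2132, 2050, 2022 and 1631 CPM in neutrophil-like, monocyte-like, lymphatic EC-like and macrophage-like cells, whose samples overlapped. It was 1092, 1045, 824 and 681 CPM in fibroblast-like, VSMC-like, EC-like and BEC-like cells, which also overlapped, and 32.7 and 21.7 CPM in NK&T-like and B-like cells. Fibroblast-like cells gave 68.4% of Cxcl1 UMIs in treat day 1, where they were 5550 of 22518 cells, and 4.79% to 38.1% in the other samples. Fibroblast-like Cxcl1 stood at 304, 1092 and 619 CPM in sham, 1507, 1097 and 1047 CPM in ctrl, and 1968, 1617 and 962 CPM in treat. BEC-like Cxcl1 differed most between ctrl and treat at day 3, with 177 CPM in ctrl and 2121 CPM in treat, against 510 and 181 CPM at day 1 and 781 and 1088 CPM at day 7. Without single libraries, the ctrl level was 259.8 CPM at day 1 (library 2) and 347 CPM at day 7 (library 3), and the treat level was 1277 CPM at day 3 (library 3) and 562 CPM at day 7 (library 3).

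In macrophage-like cells the sham samples disagreed. Cxcl1 stood at 186, 5569 and 4358 CPM in sham, 676, 1456 and 1504 CPM in ctrl, and 1852, 4234 and 1631 CPM in treat. Cxcl2 stood at 626, 7220 and 6766 CPM in sham, 1721, 2668 and 2485 CPM in ctrl, and 3080, 5454 and 2447 CPM in treat. Sham 2 and 3 were above all ctrl samples for both genes and sham 1 was below them. For Cxcl1 every treat sample was above every ctrl sample, which ended without library 1 of ctrl day 3 or day 7 or library 2 of treat day 1 or day 7. The share of all genes of this class with such a separation was not counted. The macrophage-like cells of sham 1 fell by 96.6% into 1 cluster, and those of sham 2 and 3 by 90.0% and 91.0% into another, whereas the ctrl samples fell into the former (81.9% at day 1) and into a further cluster (74.7% and 72.6% at days 3 and 7). Of the 6 members tested, none passed in ctrl against sham, where 0.114% of genes passed (11 genes, with 2036 at an unadjusted p under 0.05). Without sham 1, Cxcl1, Cxcl2 and Cxcl3 were lower in ctrl, with log2 fold changes of -1.92, -1.50 and -2.60 (edgeR adjusted p = 0.045, 0.0406 and 0.0364). The share of all genes of the class that passed without sham 1 is not given here, so these calls are not read as a result about the members. Each gene passed under 1 of 17 alternatives, over which the adjusted p ranged up to 0.749, 0.901 and 0.929. With all samples, Cxcl3 had a log2 fold change of -2.06, which turned to 3.00 (edgeR adjusted p = 0.174) in a finer clustering (Leiden resolution 2). There, macrophage-like Cxcl3 stood at 11.6, 373 and 354 CPM in sham and 4748, 224 and 425 CPM in ctrl. At that resolution Cxcl2 stood at 4754, 7154 and 7107 CPM in sham and 8949, 2930 and 3690 CPM in ctrl. Ctrl day 1 was then above every sham sample, and sham 1 was above ctrl days 3 and 7. Cxcl1 kept its order of sham and ctrl. Its treat and ctrl samples overlapped, with 3112 CPM in ctrl day 1 against 1909 and 1547 CPM in treat days 1 and 7.

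In monocyte-like cells, Cxcl2 was highest in sham and lowest in treat. It stood at 4566, 6336 and 4710 CPM in sham, 4280, 4457 and 4444 CPM in ctrl, and 2915, 3859 and 2886 CPM in treat. The ctrl samples were below the sham samples and the treat samples below both, but the former ended without library 1 of any ctrl day or library 3 of ctrl day 7, and the latter without ctrl day 7 library 2 (2698 CPM). How many of all genes of the class separated in these ways was not counted. Cxcl3 ranged from 23.8 to 632 CPM and Cxcl1 from 1582 to 4662 CPM over the samples of this class. No member passed in this class, which had 0% of genes past the adjusted p in treat against ctrl, with 202 at an unadjusted p under 0.05 and 1 called by DESeq2. The sham levels of this class rest on 51, 38 and 19 cells. Sham was not tested there because sham 3 held 19 such cells.

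Cxcl6 was the epithelial member. BEC-like cells gave 69.2% to 97.9% of its UMIs in every sample. Its median level over the samples was 337 CPM in BEC-like cells and 22.3 CPM in fibroblast-like cells, and at most 6.59 CPM in the other classes plotted. BEC-like Cxcl6 stood at 80.3, 180 and 203 CPM in sham, 514, 678 and 337 CPM in ctrl, and 351, 460 and 285 CPM in treat. All transplant samples were above all sham samples, and ctrl and treat overlapped. At matched days treat was 0.683, 0.679 and 0.845 of ctrl. In BEC-like cells, 4 of the 6 members tested were above every sham sample in ctrl, against 5.59% of genes, and 2 of 6 in treat, against 5.41%. They were Cxcl3, Cxcl6, Csf3 and Csf3r in ctrl and Cxcl6 and Csf3r in treat. BEC-like Csf3r was low, at most 0.072 CPM in sham and 0.372 to 4.11 CPM in the transplant samples, and free RNA would give 33.0% of its UMIs there. In barcodes of at most 100 UMIs Csf3r averaged 28.8 CPM in ctrl, against at most 1.68 CPM in sham, and its part in the result was not tested. In such barcodes 5 of the 8 members were above every sham sample in ctrl, against 7.13% of genes, and 4 were below every ctrl sample in treat, against 2.04%. In ctrl, the separations of Cxcl3 and Csf3 ended when single libraries were left out. In treat, the separation of Cxcl6 ended without library 3 of day 1 or of day 7 (177 and 166 CPM).

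Cxcl6 rose in BEC-like cells of ctrl against sham (log2 fold change 1.94, SE 0.43, edgeR adjusted p = 0.0484), 1 of 6 members tested, where 2.82% of 13282 genes passed. The call was close to the threshold and was kept under 6 of 17 alternatives. Without ctrl day 1 library 2, the log2 fold change was 1.67 and the adjusted p 0.0791, without ctrl day 7 library 2 they were 1.93 and 0.0511, and leaving out sham 1, 2 or 3 or ctrl day 1 or 3 gave adjusted p of 0.0616, 0.165, 0.139, 0.104 and 0.135, within a range of 0.000289 to 0.165 over all alternatives. In treat against sham no member passed, where 0.00753% of genes passed, and in treat against ctrl none passed, where 0% passed (1070 genes at an unadjusted p under 0.05, 115 called by DESeq2). Single libraries overlapped, since ctrl day 1 library 1 held 82.7 CPM and treat day 1 library 1 held 74.4 CPM.

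The spread of BEC-like cells over clusters differed between samples, also within sham. In sham 2 and 3, 73.5% and 82.0% fell into a cluster that held 0.745% to 4.42% of those of the transplant samples. It held 28.9% of those of sham 1, of which 55.3% fell into another cluster. That other cluster also held 38.8% and 37.3% of those of ctrl days 1 and 3 and 31.9% of those of treat day 1. Within the main cluster of sham 2 and 3, Cxcl6 stood at 99.8, 196 and 213 CPM in sham, 434, 544 and 270 CPM in ctrl, and 489, 423 and 269 CPM in treat. In the cluster led by Reg3g and Reg3b, genes for antibacterial lectins, it stood at 151, 197 and 192 CPM in sham, 469, 688 and 441 CPM in ctrl, and 362, 384 and 415 CPM in treat. In the cluster led by Lypd8 and Wfdc21 it stood at 11.6, 83.8 and 88.8 CPM in sham, 639, 573 and 410 CPM in ctrl, and 150, 314 and 338 CPM in treat. All transplant samples were above all sham samples in these 3 clusters. How many of all genes separated in this way within the clusters was not counted. Some of these levels rest on few cells. The main cluster of sham 2 and 3 held 16, 3 and 10 cells in ctrl day 1 libraries 1, 2 and 3, and 27 in ctrl day 3 library 1. In the remaining cluster, led by Mmp7, ctrl day 7 (317 CPM) was below sham 3 (328 CPM). In thinned BEC-like cells Cxcl6 was seen in 4.05% to 14.4% of cells in sham, 17.5% to 29.0% in ctrl and 14.7% to 21.4% in treat, against at most 0.767% of NK&T-like cells. Unthinned, these shares were 16.2% to 47.3%, 39.3% to 55.8% and 36.5% to 50.5%. Free RNA would give 0.398% of the Cxcl6 UMIs of BEC-like cells.

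In fibroblast-like cells, Cxcl6 was near 0 in sham and not in the transplant groups. It stood at 1.82, 2.44 and 1.32 CPM in sham, 194, 72.2 and 200 CPM in ctrl, and 48.1, 22.3 and 12.2 CPM in treat. The 3 groups did not overlap, with treat between sham and ctrl. Ctrl day 7 held 10.1, 530 and 141 CPM in libraries 1, 2 and 3, and without library 2 it stood at 35.7 CPM, below treat day 1. Ctrl day 3 stood at 46.8 CPM without library 1, also below treat day 1. The treat levels were uneven too, with 34.8, 16.4 and 88.4 CPM in libraries 1, 2 and 3 of day 1 and 20.2, 5.06 and 5.97 CPM in those of day 7. Every transplant library, from 5.06 to 530 CPM, was above every sham library, and ctrl and treat libraries overlapped. Cxcl6 rose in ctrl against sham by a log2 fold change of 6.62 (SE 0.76, edgeR adjusted p = 0.0144), 1 of 6 members tested, where 0.687% of 11644 genes passed. The fold starts from a very low level in sham. The call was lost without sham 1 (adjusted p = 0.054), sham 2 (0.0908) or sham 3 (0.165), with more doublets removed (0.0569) and without ctrl day 7 library 2 (log2 fold change 6.06, 0.0515). It was kept under 12 of 17 alternatives, within a range of 4.42e-20 to 0.165. Without ctrl day 1 library 2 it was 6.62 with an adjusted p of 0.0149.

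In fibroblast-like cells, 3 of 6 members were above every sham sample in ctrl, against 7.05% of genes, and 2 of 6 in treat, against 4.58%. In treat 4 of 6 were below every ctrl sample, against 2.77% of genes: Cxcl2, Cxcl3, Cxcl6 and Csf3r. All 4 separations of treat and ctrl ended without ctrl day 7 library 2, and of those of ctrl and sham only that of Cxcl6 remained when any single library was left out. Those of treat and sham were Cxcl6 and Csf3, and that of Csf3 ended without treat day 7 library 2 (0 CPM). No member passed in treat against sham, where 0.0429% of genes passed (5 genes, with 1298 at an unadjusted p under 0.05), or in treat against ctrl, where 0% passed (390 genes at an unadjusted p under 0.05, 11 called by DESeq2). Free RNA would give 46.5% of the Cxcl2 UMIs and 34.5% of the Csf3r UMIs of this class, against 2.29% of the Cxcl6 UMIs. The fibroblast-like cells of sham 2 and 3 fell by 71.0% and 88.3% into 1 cluster and those of day 1 by 99.7% and 98.4% (ctrl and treat) into another. In the cluster that both sham and later transplant samples shared, Cxcl6 stood at 3.51 and 1.52 CPM in sham 2 and 3, 76.7 and 204 CPM in ctrl at days 3 and 7, and 7.43, 25.2 and 13.2 CPM in treat.

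Csf3 was sparse, and its sources changed from sample to sample. Monocyte-like cells gave 62.7% and 47.1% of its UMIs in treat at days 3 and 7, fibroblast-like cells 56.4% in treat day 1, and unnamed cells 45.7% and 50.9% in ctrl at days 1 and 7. The fibroblast-like share was 7.01% without treat day 1 library 3, and the unnamed shares were 5.15% and 6.98% without library 2 of the day. Fibroblast-like Csf3 stood at 0, 0 and 0.0293 CPM in sham, 6.02, 4.28 and 3.14 CPM in ctrl, and 6.22, 0.343 and 0.110 CPM in treat, and was 0 in ctrl day 3 without library 1 and in ctrl day 7 without library 2, and 0.199 CPM in treat day 1 without library 3. EC-like Csf3 stood at 0, 6.69 and 12.9 CPM in sham, 39.8, 2.50 and 9.99 CPM in ctrl, and 9.88, 9.03 and 1.68 CPM in treat. Without library 2 of the day, EC-like Csf3 was 18.7 CPM in ctrl day 1 and 1.26 CPM in ctrl day 7. Counting intervals of the class shares of Csf3 reached 40.5 points to either side, in sham 1 with 2 UMIs. In sham 2, with 86 UMIs, macrophage-like cells gave 72.1% and EC-like cells 16.3%.

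Of 112 tests of members within classes, in 23 fits, 2 passed: Cxcl6 in BEC-like and in fibroblast-like cells of ctrl against sham, neither of them without ctrl day 7 library 2. In the other classes with a test against sham, no member passed in EC-like (0.955% of genes passed in ctrl and 0.0788% in treat), NK&T-like (0.047% and 0.0705%) or VSMC-like cells (0.861% and 0%), in macrophage-like cells of treat (0.321%) or in lymphatic EC-like cells of treat (0.2%).

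The 6 lists hold genes of chemokine and neutrophil signaling, and 69 of their 71 genes could be tested. They were chosen with earlier results of these data known, so the counts describe the lists and are no independent support. In ctrl against sham in all cells, 19 genes were higher and 2 lower (edgeR, adjusted p under 0.05), beside 8.34% of all genes. These calls were 0 without sham 2, without sham 3 or without ctrl day 3, 8 higher and 0 lower without ctrl day 7, 7 and 1 in a fit of the sham and ctrl samples alone, and 14 and 2 without ctrl day 7 library 2. The median log2 fold change was 0.88, against -0.02 over all genes. None passed in treat against sham or treat against ctrl, with medians of 0.56 and -0.16. Of the adhesion and signalling genes of neutrophils 9 of 17 were higher in ctrl. The neutrophil-like share (a mean of 1.13% in sham and 22.4% in ctrl) and the summed neutrophil markers (50.0 to 1031 CPM in sham and 6921 to 17825 CPM in ctrl) moved with these lists, and their part in the result was not tested. Itgam, the alpha chain of the integrin Mac-1, changed by 2.35 (SE 0.28, adjusted p = 0.0173), the Src family kinase gene Fgr by 3.18 (SE 0.55, 0.0209) and Selplg, the ligand of P-selectin, by 2.92 (SE 0.55, 0.0253).

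Of the cytokines that induce the chemokines 3 of 12 were higher: Osm (log2 fold change 3.06), Il1a (2.59) and Il1b (2.51). Il1b stood at 372, 182 and 172 CPM in sham, 770, 1559 and 863 CPM in ctrl, and 374, 1146 and 516 CPM in treat. Among the receptors and adaptors of these inducers 2 of 10 were higher, Il17ra by 1.43 among them, and 1 of 12 genes of transcription and mRNA decay. Among other attractants and their receptors 4 of 13 were higher and 1 lower, with C5ar1, the receptor of complement C5a, at 2.62. Csf2ra, a chain of the receptor for granulocyte-macrophage colony-stimulating factor, changed by 1.65. Of 5 scavenger and presenting receptors Ackr2 was lower by a log2 fold change of -4.49 (SE 0.84, edgeR adjusted p = 0.0249). It clears mainly CC chemokines, not the CXC chemokines followed here, and stood at 0.597 to 1.19 CPM in sham and at most 0.0472 CPM in ctrl. Lymphatic EC-like cells, a cell type known to express Ackr2, were 0.893% to 3.10% of cells in sham and 0.0702% to 0.432% in ctrl. They held 5 of 7, 12 of 66 and 4 of 39 Ackr2 UMIs in sham, and 2 of 9 in ctrl. Their part in the result was not tested.

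Across 96 profiles of a class in a sample, genes with levels most like each member were found by Pearson's r of log2(CPM + 1), as a description. The profiles share libraries and differ in depth, and the r values reflect mostly which classes express a gene. For Cxcl2 they were Il1b (0.89), Lilrb2 (0.89) and Nlrp3 (0.87), for Cxcl1 Ier3 (0.87), Rin2 (0.79) and Ccl2 (0.79), and for Cxcl3 Il1rn (0.79), Cxcl2 (0.77) and Tlr2 (0.76). For Cxcl6 they were LOC688459 (0.84), Lrrc8e (0.84) and Chl1 (0.80), and for Csf3 Sod2 (0.55), Prg4 (0.54) and Hmox1 (0.54). For Cxcr2 they were Mmp8 (0.95), a marker that named the neutrophil-like class, Fetub (0.94) and Fcar (0.93), and for Csf3r Clec4b2 (0.95), Mcemp1 (0.94) and AABR07006142.1 (0.94). The receptors had an r of 0.85 with each other, and Cxcl2 had 0.80 with Csf3r and -0.02 with Cxcl6.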

How the data were processed

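Per the labels, rat bile duct cells were profiled with 10x Genomics 3′ chemistry. The authors deposited matrices of raw UMI counts per gene and barcode; the submitters' notes name Cell Ranger 5.0.1 and Seurat 3.2.0, while the matrix headers name Cell Ranger 4, and the genome build is not given in the sources used here. The 8 genes and all lists were chosen with earlier results of these data known.

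From the deposited counts, cells were retained in 20 libraries where the barcode showed over 400 but below 6000 genes, mitochondrial UMIs below 25% and hemoglobin UMIs below 3%, and cells above a doublet score set for the highest 7.5% of each library were removed, with tied scores kept (139416 of 150284 cells left, 7.23% removed). Cells were clustered (scanpy 1.11.5; 2000 variable genes without the members and lists, 30 components, 20 neighbours, Leiden resolution 0.9, no integration of libraries). A cluster was named from at least 3 detected markers, and stayed unnamed where its leading genes went against the name. UMIs were summed per sample and class, and tested with edgeR 4.0.16 (quasi-likelihood, TMM, low-count filter, Benjamini-Hochberg over all genes, 1 fit of all groups). Tests within a class used only samples with at least 20 of its cells. Levels and medians by class also include samples with fewer cells. Shares of cells were compared by exact permutation tests. Levels are CPM. Free RNA was estimated from barcodes of at most 100 UMIs. Detection was compared after thinning to 1000 UMIs. Tested on simulated data for ctrl against sham in all cells, the fit recovered 152 of 200 genes changed 4-fold among 15791 genes and 197 of 200 changed 16-fold among 15771, with 10 false calls each. Alternatives were DESeq2 1.42.0, other scalings, filters, resolutions and doublet limits, libraries as samples, free RNA subtracted, the day as a block, and leaving out samples and libraries; leaving out ctrl day 1 library 2, ctrl day 7 library 2 or ctrl day 3 libraries 2 and 3, levels without each library in turn, and scaling to total UMIs, were chosen after seeing the data. Named genes were the members, the genes of the lists past the adjusted p (at most 10 per comparison) and the 3 genes most like each member. UMI totals per sample in retained cells were 9238809 to 191680084.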

Additional observations from a re-analysis of the deposited data

Results flagged for a closer look

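Barcodes of at most 100 UMIs, which hold free RNA and no cell, are outside the comparisons above, and 5 of the 8 members stood higher there in every ctrl sample than in every sham sample, against 7.13% of the 15968 genes tested in all cells. Over the 3 ctrl samples Cxcl2 averaged 3084 CPM, against 317 to 721 CPM in the sham samples. Cxcl3 averaged 417 CPM, against 6.29 to 55.8 CPM, and Csf3 averaged 10.5 CPM, against 0 to 2.07 CPM. The receptors Cxcr2 and Csf3r averaged 3.39 and 28.8 CPM, against at most 0.226 and 1.68 CPM. The treat samples were lower than the ctrl samples there for 4 members, against 2.04% of the genes: Cxcl2, at 655, 1434 and 833 CPM, Cxcl3, at 65.9, 88.0 and 27.3 CPM, Csf3, at 4.63, 5.00 and 1.14 CPM, and Cxcr2, at 1.85, 1.31 and 1.02 CPM. The summed level of the 12 neutrophil markers in these barcodes was 117 to 670 CPM in sham, 13312 to 18752 CPM in ctrl and 2010 to 15420 CPM in treat. Its part in the result was not tested.

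Csf3r in neutrophil-like cells moved in opposite ways on different days. At day 3 both treat libraries (343 and 231 CPM) were below the 3 ctrl libraries (473, 623 and 572 CPM), a difference of unweighted library means of -269 CPM. Ctrl day 3 libraries 2 and 3 held 130 and 104 neutrophil-like cells, against 2205 in library 1. With libraries summed, the day 3 levels were 322 CPM in treat and 484 CPM in ctrl. At day 7 the 3 treat libraries (451, 336 and 770 CPM) were above the 3 ctrl libraries (331, 205 and 318 CPM), a difference of unweighted library means of 234 CPM. With libraries summed, the day 7 levels were 447 CPM in treat and 249 CPM in ctrl. Libraries of a day are not known to be separate animals. The difference between the days was not tested. How many of all genes of the class had libraries separated in these ways was not counted, so the separations are not read as a result about Csf3r.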

How the results depend on the processing

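In ctrl against sham (1331 genes and 2 members called in all cells, 2 members within classes), DESeq2 called 3567 genes, 6 members and 9 members within classes. Counts of members within classes under an alternative stand here without the share of all genes called, and are not read as a result about the members. A fit of the 2 groups alone called 430 genes and 1 member, each library as a sample 2163 genes and 1 member within classes, total UMIs in place of TMM 2261 genes (326 up and 1935 down, against 661 and 670, as the median log2 change of all genes moved from -0.02 to -0.37), and every barcode summed 4 members. Within classes RLE factors, free RNA subtracted, 15% of doublets removed and leaving out ctrl day 1 library 2 left 1 member each, and no low-count filter gave 8. Without ctrl day 7 library 2, 1 member passed in all cells (Csf3r) and 0 within classes. Leaving out each replicate gave 0 to 1865 genes, 0 to 3 members and 0 to 3 members within classes; 0 genes passed without sham 2, sham 3 or ctrl day 3. In treat against sham (1 gene and 0 members called), DESeq2 called 2315 genes, 1 member and 4 members within classes, each library as a sample 634 genes and 1 member, total UMIs 111 genes, every barcode summed 3 genes, and no filter 3 members within classes. The count was 0 genes with RLE factors, no filter, the 2 groups alone, no doublet removal, no hemoglobin limit or without ctrl day 1 or ctrl day 7 library 2, and 0 to 11 when leaving out each replicate. In treat against ctrl (0 genes and 0 members called), DESeq2 called 9 genes and 3 members within classes, and no filter 6 members within classes. Cxcl6 in treat against ctrl turned to 0.16 without ctrl day 1 (-1.16 to 0.16 when leaving out each replicate), and macrophage-like Cxcl3 in ctrl against sham turned from -2.06 to 3.00 at resolution 2; neither passed the test, and the cause was not tested. With the day as a replicate block, treat against ctrl kept 0 calls, and Cxcl2 had a log2 fold change of -1.55 (edgeR adjusted p = 0.906). Same-day deviations of ctrl and treat correlated by 0.362, -0.06 and 0.596 at days 1, 3 and 7. Deviations of different days correlated by -0.565 to 0.188. Days 1 and 7 thus matched their own day best and day 3 did not. The neutrophil-like share kept its direction in all alternatives (16.4 to 28.6, 4.43 to 8.76 and -21.9 to -9.67 points when leaving out each replicate). Low counts limit Csf3, Cxcr2 and the sham neutrophil-like values.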
